A study of Rattus norvegicus with 6 samples.

Results

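The genes described here are those of the proteasome, taken as every gene whose symbol starts with Psma, Psmb, Psmc, Psmd, Psme, Psmf or Psmg followed by a number, with Psmb8 and Psmb9 left out by the same rule. Probes were named by matching their RefSeq accessions to a current rat gene table, and the rule then found 44 of 15154 named genes, on 50 probes. Of these, 42 encode subunits, activators, inhibitors or assembly chaperones of the proteasome. The other 2, Psmc3ip and Psme3ip1, encode proteins that carry the name of a proteasome partner. The study used male Wistar rats, 2 months old at surgery, which lost both testes (orchidectomized) or received a sham operation, and their hippocampus was collected 2 weeks later. Each group held 3 biological replicates, each on its own 1-colour Agilent array, and no further treatment or genetic change is given for either group. The labels do not say which animal gave which sample or whether animals were pooled, so p-values measure the spread between these samples. Values are log2 intensities after subtraction of each array's 75th percentile, differences are orchidectomized minus sham, and the small number of arrays limits their precision.

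The proteasome is the protease that degrades proteins tagged with ubiquitin. Its barrel-shaped core has outer rings of alpha subunits, which gate the entry, and inner rings of beta subunits, some of which cut the protein. A regulatory cap with a ring of ATPases and a lid binds the tagged protein, removes ubiquitin and unfolds the chain. In immune responses interferon induces other catalytic beta subunits and the activator made of the Psme1 and Psme2 proteins, which shape the peptides shown on MHC class I molecules. In neurons protein breakdown by the proteasome takes part in synaptic plasticity.

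The array labelled sham 2 went against its tissue label. Glutamatergic neuron genes lay a median of -7.48 from the median of the other 5 arrays there, with 12 of 12 measured genes lower by over 1 log2 unit, and Slc17a7, Tbr1, Grin2a, Grin2b and Prox1 were not well above background there. Their summed linear level was 0.291 on that array and 36.6 to 52.5 on the others. Also lower by over 1 log2 unit were 9 of 9 GABAergic interneuron, 7 of 8 astrocyte, 9 of 9 oligodendrocyte and 4 of 8 microglia genes. Of the ependyma genes, 4 of 4 detected were higher by over 1 log2 unit. Choroid plexus genes lay a median of at least 8.23 above, with 14 of 15 measured genes higher by over 1 log2 unit, and their summed level was at least 409 against 10.9 to 41.3. The spots of 8 of these genes were saturated on that array, and that of Ttr also on orchidectomized 1, so these levels are lower bounds. Of the antigen presentation genes, 7 were detected, and these lay at least 2.42 above as a median, 7 of 7 by over 1 log2 unit, with B2m saturated on that array. RT1-Ba was well above background on 0 of 6 arrays and is not counted. The part of these shifts in the proteasome values was not tested. In tissue RNA fewer cells of a type and less RNA per cell cannot be told apart. Each comparison is therefore given with and without that array.

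All 44 genes were well above background on all 6 arrays, so none was lost to the brightness filter. Without the array labelled sham 2, none of them passed the test between 3 orchidectomized and 2 sham arrays, and the estimated differences were small. The median difference was 0.00, with a range from -0.29 to 0.45, and 23 genes had a positive and 21 a negative value. Over all 25212 tested probes the median was -0.02, with 44.9% positive and 55.1% negative. Limma called 0 of the 44 genes at a Benjamini-Hochberg adjusted p under 0.05, and 0% of all tested probes. At an unadjusted p under 0.05 it also called 0 of 44, where 2.71% of all tested probes passed. The smallest unadjusted p was 0.168, and every limma adjusted p was at least 0.988. The standard errors ran from 0.12 to 0.28. For 43 of 44 genes the 95% interval of the difference lay inside 1 log2 unit in either direction, and the exception was Psmc5, whose spot was saturated on 2 arrays and whose interval reached 1.15.

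**Figure D1:**
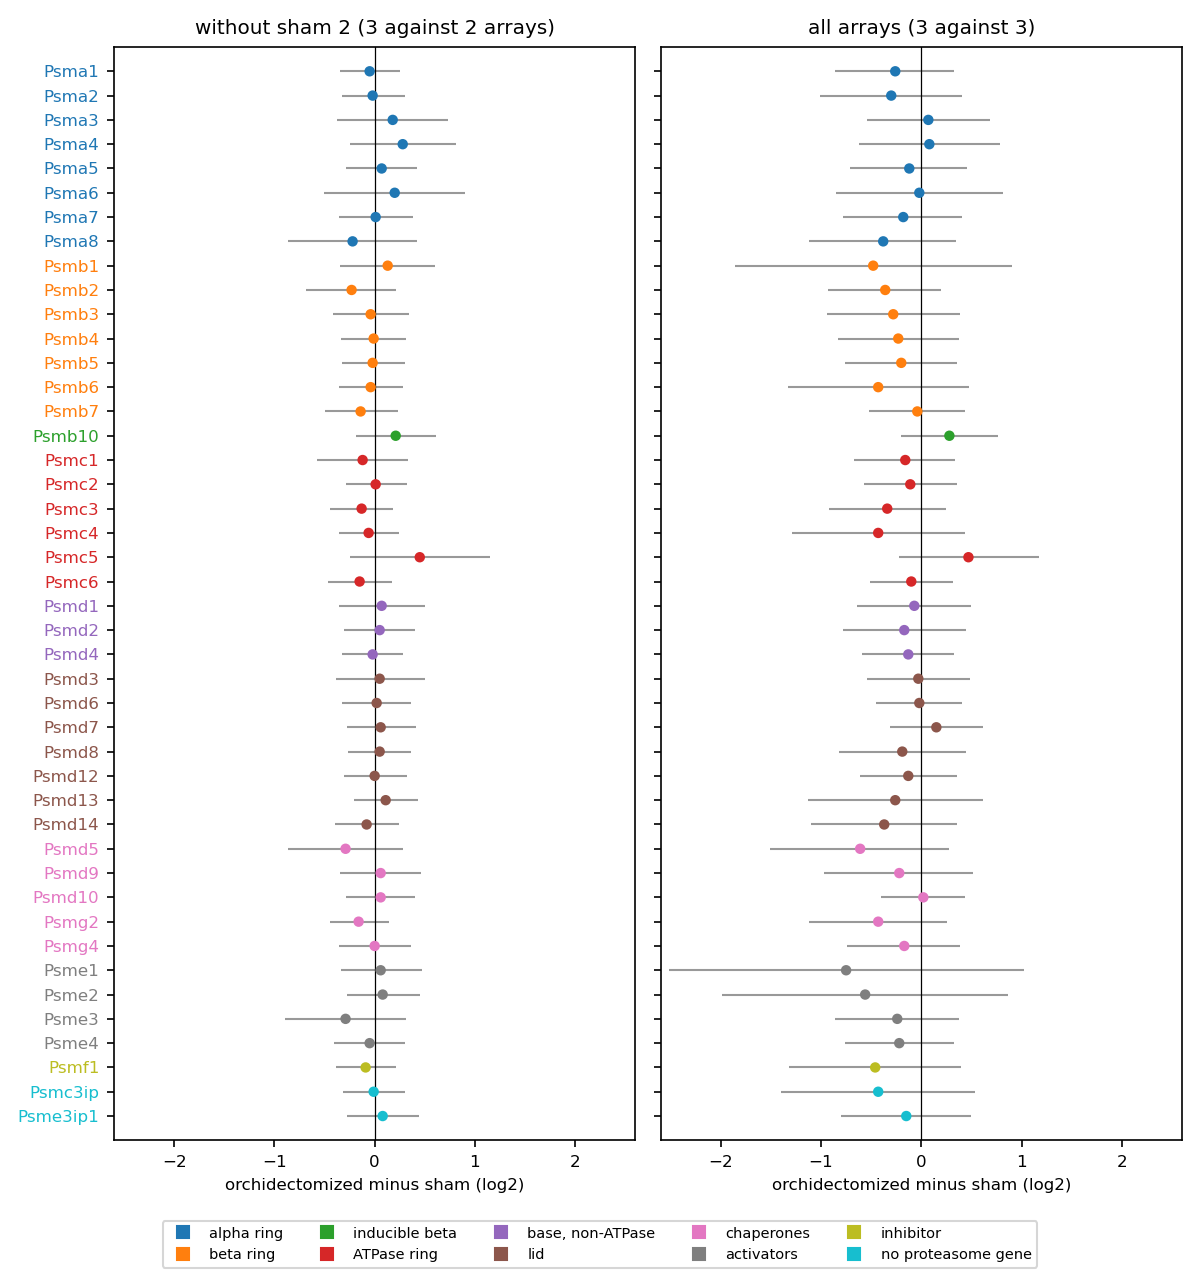
Difference between orchidectomized and sham arrays (log2, horizontal axis) for each of 44 genes, without the array labelled sham 2 (left) and over all 6 arrays (right). Points are limma estimates, lines their 95% intervals and colours the role of the gene. Without that array the estimates lie between -0.29 and 0.45, and with it the intervals of Psmb1, Psme1 and Psme2 are wide.

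The genes that encode the sites that cut proteins are Psmb5, Psmb6 and Psmb7, named for chymotrypsin-like, caspase-like and trypsin-like activity, respectively. Psmb5 was at 3.28, 3.20 and 3.20 on orchidectomized 1 to 3 and at 3.31 and 3.17 on sham 1 and sham 3. The groups overlapped, and the difference was -0.02 with a standard error of 0.13 (interval -0.33 to 0.30). Psmb6 was at 1.37, 1.39 and 1.32 on the orchidectomized arrays and at 1.49 and 1.31 on sham 1 and sham 3. These values overlapped too, with a difference of -0.04 and a standard error of 0.13. Psmb7 was at 2.27, 2.15 and 2.01 on the orchidectomized arrays and at 2.38 and 2.18 on sham 1 and sham 3. The lowest of these was orchidectomized 3, and the difference was -0.14 with a standard error of 0.15. The interferon-inducible catalytic gene Psmb10, whose product can replace that of Psmb7, was at 2.59, 2.66 and 2.85 on the orchidectomized arrays and at 2.64 and 2.33 on sham 1 and sham 3. Sham 1 lay among the orchidectomized values and sham 3 below them, and the difference was 0.21 with a standard error of 0.16 (interval -0.19 to 0.61). On the first scan day, against sham 1 alone, it was 0.06.

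Among the other genes of the core, the 8 alpha ring genes had a median difference of 0.04, from -0.22 for Psma8 to 0.28 for Psma4. The 7 constitutive beta ring genes had a median of -0.04. Psmb2, a beta subunit without a cutting site, was at 2.84, 2.84 and 2.40 on the orchidectomized arrays and at 2.92 and 2.93 on sham 1 and sham 3. All 3 orchidectomized values lay below both sham values, with orchidectomized 3 the lowest, and the difference was -0.23 with a standard error of 0.18 and an adjusted p of 0.988 in limma.

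In the regulatory cap, the 6 ATPase genes had a median difference of -0.09. Psmc3 was at 2.12, 2.19 and 2.27 on the orchidectomized arrays and at 2.35 and 2.31 on sham 1 and sham 3. Psmc6 was at 0.38, 0.28 and 0.46 on the orchidectomized arrays and at 0.55 and 0.50 on those sham arrays. Both ATPase genes were thus lower without overlap, by differences of -0.13 and -0.15 with a standard error of 0.13 each. Psmc5 was at 5.14, 4.93 and 5.73 on the orchidectomized arrays and at 5.05 and 4.59 on sham 1 and sham 3. Its spot was saturated on orchidectomized 2 and on sham 3, where the values are lower bounds. The measured values gave 0.45 with a standard error of 0.28 and an adjusted p of 0.988 in limma, and neither the size of the difference nor the overlap of the groups is known from them.

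The 3 base genes outside the ATPase ring had a median of 0.05 and the 7 lid genes a median of 0.05. Psmd4, which encodes a ubiquitin receptor, was at 2.80, 2.75 and 2.69 on the orchidectomized arrays and at 2.80 and 2.73 on sham 1 and sham 3. Its 5 values spanned 0.12, and the difference was -0.02 with a standard error of 0.12. Psmd14, the deubiquitinase that removes ubiquitin chains from bound proteins, was at 0.34, 0.40 and 0.38 on the orchidectomized arrays and at 0.36 and 0.54 on sham 1 and sham 3. The groups overlapped, and the difference was -0.08 with a standard error of 0.13. Psmd13, a lid subunit gene, was at 1.22, 1.24 and 1.40 on the orchidectomized arrays and at 1.15 and 1.20 on sham 1 and sham 3. It was the 1 gene of the 44 that was higher in the orchidectomized group without overlap, where 6.24% of all tested probes were, and the difference was 0.11 with a standard error of 0.13 (interval -0.21 to 0.43). No probe carried the name of the lid gene Psmd11, which was not analysed here.

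Among the genes outside the particle's core and cap, the assembly chaperone gene Psmg2 was at -1.62, -1.65 and -1.69 on the orchidectomized arrays and at -1.51 and -1.47 on sham 1 and sham 3. The inhibitor gene Psmf1 was at 1.41, 1.40 and 1.31 on the orchidectomized arrays and at 1.46 and 1.47 on sham 1 and sham 3. Both were lower without overlap, by differences of -0.16 and -0.09 with a standard error of 0.12 each. With Psmb2, Psmc3 and Psmc6 they made 5 of 44 genes (11.4%) that were lower without overlap, where 10.0% of all tested probes were. The activator genes Psme1 and Psme2 had differences of 0.06 and 0.08, with standard errors of 0.16 and 0.15, and overlapping groups. Psme3, which encodes the nuclear activator, was at -0.39, -0.52 and -1.12 on the orchidectomized arrays and at -0.41 and -0.36 on sham 1 and sham 3. Orchidectomized 3 was the low array, and the difference was -0.29 with a standard error of 0.24. Psme4, the gene of the single-chain activator, differed by -0.05 on its brightest probe and by 0.06 on its second probe.

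Over the 5 arrays the values of most genes lay close together. The range of a gene over these arrays had a median of 0.28, from 0.12 to 1.14, where all tested probes had a median of 0.48. Orchidectomized 3 was the array farthest from the 5-array median for 28 of 44 genes (63.6%), and for 47.2% of all tested probes. On that array 14 genes (31.8%) lay over 0.25 from the median, 9 above and 5 below it, against 42.5% of all tested probes. Above were, among others, Psma6 by 0.79 and Psma3 by 0.57, and below were Psme3 at -0.70, Psmd5 at -0.63 and Psmb2 at -0.44. The deviations of single genes on this array thus went both ways. Limma's array weights, estimated over all probes, gave this array 0.262.

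**Figure D2:**
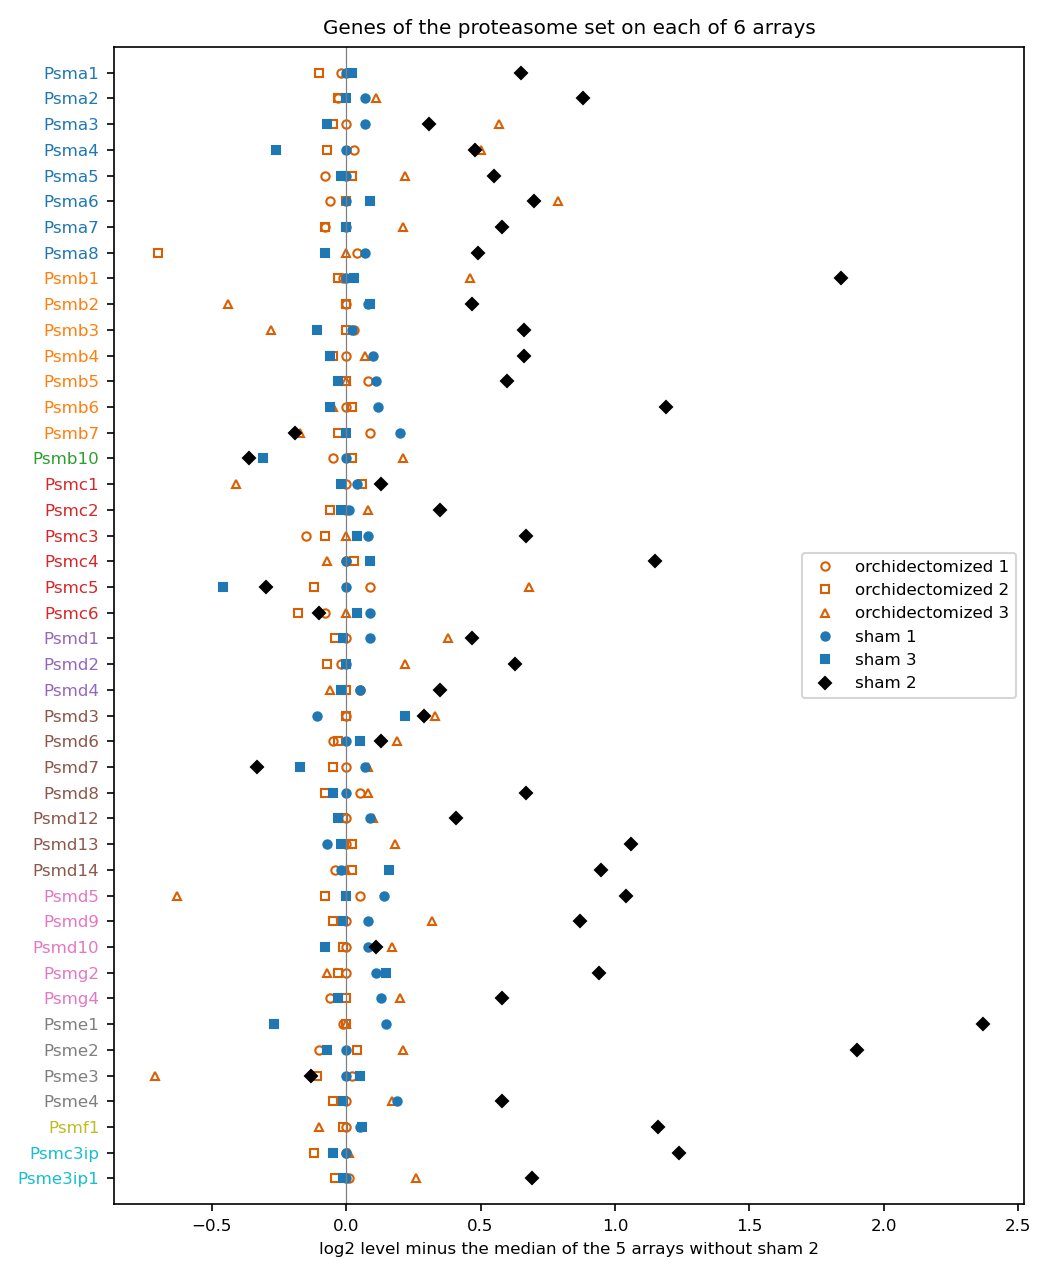
Level of each of 44 genes on each of 6 arrays, as the log2 value minus the gene's median over the 5 arrays without the one labelled sham 2 (horizontal axis). Open symbols are orchidectomized arrays, filled symbols sham arrays, and name colours mark the role. The black diamonds of the array labelled sham 2 lie to the right for 38 genes, with Psme1 at 2.37 and Psme2 at 1.90.

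Over all 6 arrays the median difference was -0.19, with a range from -0.75 to 0.47, and 38 of 44 genes had a negative value, against 51.6% of all tested probes, while 6 had a positive one, against 48.4%. Limma called 0 of 44 genes at an adjusted p under 0.05, and 0% of the 24634 tested probes. It called 0 of 44 at an unadjusted p under 0.05, where 0.731% of the probes passed, and every limma adjusted p was at least 0.774. With the scan day as a block the median was -0.04, and with the slide as a block it was 0.02. Both blocks leave only sham 1 on the sham side, against the orchidectomized arrays of its scan day or of its slide. The arrays labelled sham 2 and sham 3 thus drop out of these 2 values, which do not show the effect of a batch on the median. Psmf1, Psmg2, Psmb2 and Psmc3 were lower without overlap, 4 of 44 (9.09%) against 4.74% of all tested probes, and 0 were higher, against 3.26%. Their differences were -0.46, -0.43, -0.36 and -0.34. The lowest difference was that of Psme1, at -0.75 with a standard error of 0.71, and without the array labelled sham 2 it was 0.06.

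On the array labelled sham 2, most proteasome genes were brighter than on the other 5 arrays. This is 1 array, with no replicate and no test. The 44 genes lay a median of 0.59 above the median of the other 5 arrays (quartiles 0.34 and 0.90), where all tested probes had a median of 0.01 (quartiles -0.92 and 0.72). On that array 38 genes (86.4%) were above the median of the other 5, against 50.3% of all tested probes. Of the 44, 32 (72.7%) were above all other 5 arrays, against 40.2% of the probes, and 3 (6.82%) were below all, against 40.3%. With median scaling 39 were above all and 0 below all, and with the other scalings 31 and 4 or 5. In 9 genes (20.5%) the shift was over 1 log2 unit upward, against 18.8% of the probes, and in 0 genes downward, against 24.0%. Among the 7564 probes with a mean above 0 on the other 5 arrays the median was -0.02, and among the 37 proteasome set genes with such a mean it was 0.58. Under the scalings tried, 38 genes kept their sign on this array, while the signs of Psmb7, Psmc6 and Psme3 turned under median scaling, those of Psmc1 and Psmd6 under quantile scaling and that of Psmd10 in the authors' values.

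**Figure D3:**
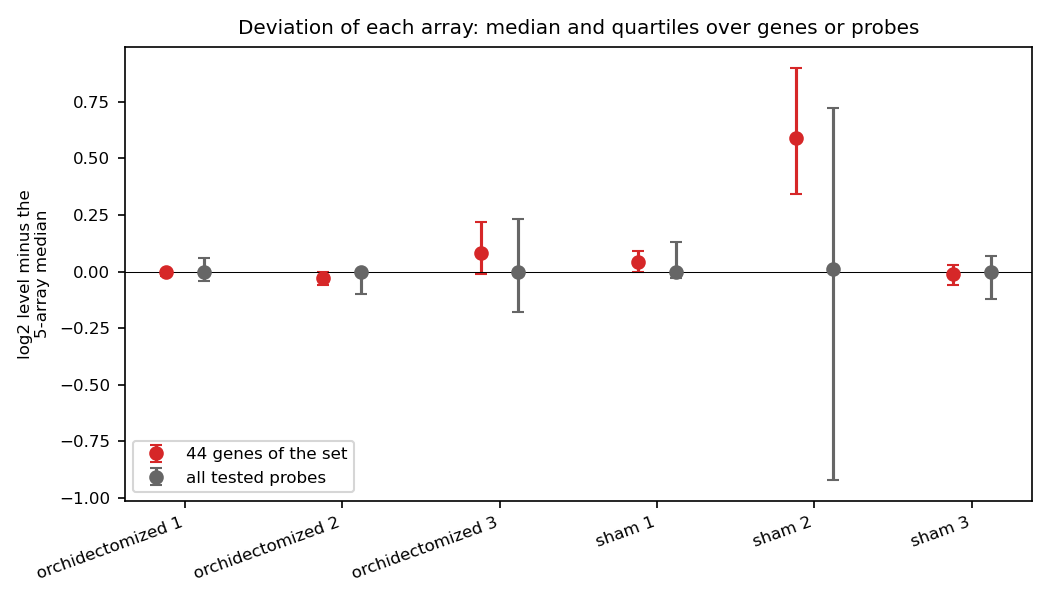
Deviation of each array (log2, vertical axis) from the median of the 5 arrays without the one labelled sham 2, as the median with quartiles over 44 genes (red) and over all tested probes (grey). The genes of the set lie between -0.03 and 0.08 on 5 arrays and at 0.59 on the array labelled sham 2, where the quartiles of all probes are -0.92 and 0.72.

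The activator genes Psme1 and Psme2 stood farthest above. Psme1 was at 2.22, 2.23 and 2.23 on the orchidectomized arrays, at 2.38 and 1.96 on sham 1 and sham 3, and at 4.60 on the array labelled sham 2, which is 5.18-fold above the median of the others. Psme2 was at 2.30, 2.44 and 2.61 on the orchidectomized arrays, at 2.40 and 2.33 on sham 1 and sham 3, and at 4.30 on the array labelled sham 2, 3.74-fold above. These 2 genes encode the subunits of 1 ring and lie on rat chromosome 15 with 1 protein-coding gene, Emc9, between them. The other activator genes differed from them: Psme4 lay 0.58 above, and 1.01 on its second probe, while Psme3 was at -0.54, within the range of the others.

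The catalytic genes went both ways on that array. Psmb6 was at 2.56 there against 1.31 to 1.49 on the others, 2.29-fold above their median, and Psmb5 was at 3.80 against 3.17 to 3.31, 1.52-fold above. Psmb7 was at 1.99 against 2.01 to 2.38, just under the lowest. Psmb10 was at 2.28 against 2.33 to 2.85, 1.28-fold below the median of the others and just under sham 3. Of the genes that interferon is known to induce in this set, Psme1 and Psme2 were above all other arrays under every scaling tried. Psmb10 was below all of them except under median scaling, where it lay within the range of the others. The same held for Psmb7, a constitutive beta ring gene. Under normexp, quantile, median scaling and the authors' values Psmb10 lay at -0.33, -0.43, -0.06 and -0.43.

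Windows upstream of these genes are shown because Psme1 and Psme2 stood apart from Psmb10 on that array, and Psmb5 and Psmb6 from Psmb7. They are the 250 bases before the RefSeq start of each gene in the GRCr8 assembly, written 5′ to 3′ on the gene's strand. The positions are chr15:33038721-33038970 on the plus strand for Psme1, chr15:33052752-33053001 on the minus strand for Psme2, chr19:50743293-50743542 on the minus strand for Psmb10, chr15:32047380-32047629 on the minus strand for Psmb5, chr10:55737638-55737887 on the plus strand for Psmb6 and chr3:42827471-42827720 on the minus strand for Psmb7. Capitals mark the motifs searched on both strands.
Psme1: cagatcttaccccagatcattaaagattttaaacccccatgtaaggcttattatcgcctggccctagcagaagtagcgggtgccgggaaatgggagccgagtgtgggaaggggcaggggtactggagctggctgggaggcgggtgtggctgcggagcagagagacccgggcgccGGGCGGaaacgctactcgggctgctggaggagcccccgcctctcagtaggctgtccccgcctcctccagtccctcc
Psme2: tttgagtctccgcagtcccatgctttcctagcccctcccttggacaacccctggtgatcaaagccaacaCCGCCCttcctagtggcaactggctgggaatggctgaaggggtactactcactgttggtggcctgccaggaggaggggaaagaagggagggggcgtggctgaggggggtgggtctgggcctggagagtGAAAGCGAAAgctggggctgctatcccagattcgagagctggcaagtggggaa
Psmb10: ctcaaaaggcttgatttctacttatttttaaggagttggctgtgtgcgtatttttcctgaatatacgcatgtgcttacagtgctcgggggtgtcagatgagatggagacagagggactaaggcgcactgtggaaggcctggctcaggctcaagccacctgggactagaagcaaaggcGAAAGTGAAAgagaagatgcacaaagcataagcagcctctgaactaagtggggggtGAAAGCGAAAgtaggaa
Psmb5: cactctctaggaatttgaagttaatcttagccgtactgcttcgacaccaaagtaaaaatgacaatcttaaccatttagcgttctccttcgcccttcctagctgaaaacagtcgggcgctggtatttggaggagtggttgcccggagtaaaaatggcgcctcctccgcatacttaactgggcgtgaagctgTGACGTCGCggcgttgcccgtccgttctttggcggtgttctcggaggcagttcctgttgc
Psmb6: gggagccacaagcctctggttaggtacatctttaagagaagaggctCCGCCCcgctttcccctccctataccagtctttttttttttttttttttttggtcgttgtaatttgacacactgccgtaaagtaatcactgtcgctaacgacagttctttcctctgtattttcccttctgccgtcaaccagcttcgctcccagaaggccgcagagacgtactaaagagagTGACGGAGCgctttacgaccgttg
Psmb7: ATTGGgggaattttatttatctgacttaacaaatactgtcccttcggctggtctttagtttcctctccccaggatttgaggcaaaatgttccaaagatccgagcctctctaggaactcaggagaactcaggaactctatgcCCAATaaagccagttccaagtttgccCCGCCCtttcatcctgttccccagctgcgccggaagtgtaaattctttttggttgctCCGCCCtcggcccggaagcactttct

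The motifs were TGACNNNGC, the core bound by NRF1 and NRF2; CCAAT, bound by NF-Y; GGGCGG, bound by SP1; and the core of interferon-response elements, GAAA followed by any 2 bases and again GAAA, which was added after the windows were read. Of the 42 proteasome genes, 38 had a window in the RefSeq table. TGACNNNGC occurred in 7 of 38 windows (18.4%), those of Psma3, Psmb2, Psmb5, Psmb6, Psmd1, Psmd9 and Psme4, and in 10.1% of all 33469 windows of that length. The Psmb7 window held 0 copies of it, with 2 copies each of the motifs of NF-Y and SP1. On the array labelled sham 2 the 7 genes with TGACNNNGC, in the order named, lay 0.31, 0.48, 0.60, 1.19, 0.47, 0.88 and 0.58 above the median of the others. Psme1, Psme2 and Psmb1, which lay highest there at 2.37, 1.90 and 1.84, held 0 copies. A link between this motif and the levels was not tested. CCAAT occurred in 18 windows (47.4%) against 34.0%, and GGGCGG in 27 (71.1%) against 30.5%. The 33469 windows outnumber the 15154 named genes of the arrays. Windows of like base composition were not compared, so these shares do not set proteasome genes apart from such windows. The interferon-response core stood in the windows of Psma4, Psmb3, Psmb10, Psmd7 and Psme2, with 2 copies in that of Psmb10, and in 3.41% of all windows. Since reading these windows prompted the search, nothing is read from that count. On the array labelled sham 2 these 5 genes lay at 0.48, 0.66, -0.36, -0.33 and 1.90 from the median of the others, in both directions. The Psme1 window held 0 copies.

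**Figure D4:**
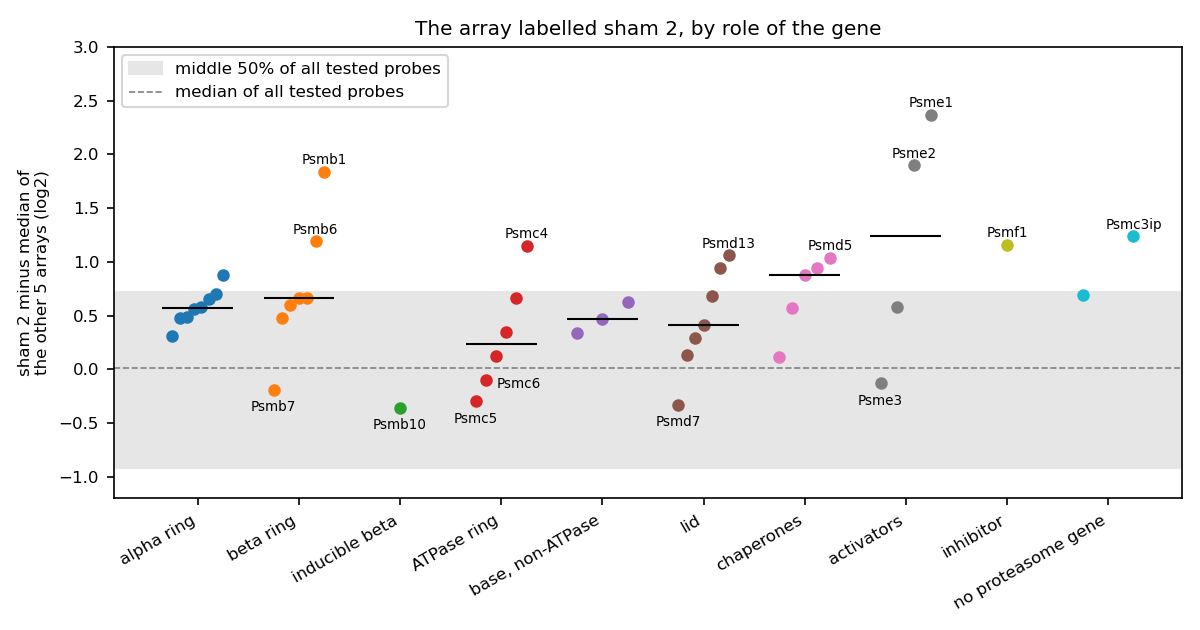
Level on the array labelled sham 2 minus the median of the other 5 arrays (log2, vertical axis) for 44 genes by role, 1 point per gene with black lines at role medians. The grey band is the middle 50% of all tested probes and the dashed line their median. Psme1, Psme2 and Psmb1 lie highest and Psmb10 lowest.

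Across roles, the median on that array lay above the other 5 arrays in each ring, the base and the lid. The alpha ring genes had a median of 0.57, with 8 of 8 above the median of the other 5 arrays, and the range from 0.31 for Psma3 to 0.88 for Psma2 was narrow. The beta ring genes had a median of 0.66, with 6 of 7 above. Psmb1, a beta subunit without a cutting site, was at 3.76 there and at 1.91, 1.89 and 2.38 on the orchidectomized arrays and 1.92 and 1.95 on sham 1 and sham 3, 3.59-fold above the median of the others. The ATPase ring genes had a median of 0.23, with 4 of 6 above, and they split. Psmc4 was at 1.98 against 0.76 to 0.92, 2.21-fold above, while Psmc6 was at 0.36 against 0.28 to 0.55, within the range of the others. Psmc5 was at 4.75, below orchidectomized 1 and 3 at 5.14 and 5.73 and sham 1 at 5.05. It was also below orchidectomized 2, whose saturated spot gave at least 4.93. Its order against sham 3, saturated at 4.59, is not known.

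The base genes outside the ATPase ring had a median of 0.47 and were above in 3 of 3, with Psmd4 at 3.10 against 2.69 to 2.80. The lid genes had a median of 0.41, with 6 of 7 above. Psmd13 was at 2.28 against 1.15 to 1.40, 2.09-fold above, and Psmd14 at 1.33 against 0.34 to 0.54, 1.92-fold above. The lid gene Psmd7 was the exception, at 1.11 against 1.27 to 1.52, 1.26-fold below the median of the others, and lay within their range under median scaling. The assembly chaperone genes had a median of 0.88, with 5 of 5 above, among them Psmd5, 2.06-fold above, and Psmg2, at -0.68 against -1.69 to -1.47. The inhibitor gene Psmf1 was at 2.57 against 1.31 to 1.47, 2.23-fold above, and its second probe lay 1.36 above. Psmc3ip, whose product acts in meiotic recombination, was at -0.28 against -1.64 to -1.51, 2.37-fold above, and Psme3ip1 lay 0.69 above.

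The genes that feed the proteasome were taken from a list of 36 measured companions, which covers ubiquitin, its activation and chain building, shuttle factors, the VCP segregase, other subunits and cofactors bound to the proteasome, and regulators of proteasome transcription. Without the array labelled sham 2, limma called 0 of 36 at an adjusted p under 0.05, as 0% of all tested probes, and 0 at an unadjusted p under 0.05, against 2.71% of the probes. Their median difference was 0.00, with 18 positive and 18 negative values. Over 6 arrays it also called 0 of 36 by either threshold, against 0% and 0.731% of the probes, and their median was -0.06. Among the 5 arrays, Pomp and Ubqln1 were higher without overlap, 2 of 36 against 6.24% of the probes, and Ube2d1 and Ngly1 lower, 2 of 36 against 10.0%. Pomp, the chaperone of core assembly, was at 3.98, 3.89 and 4.24 on the orchidectomized arrays and at 3.82 and 3.84 on sham 1 and sham 3, a difference of 0.21. Ube2d1, a ubiquitin-conjugating enzyme gene, was at -0.40, -0.28 and -1.33 on the orchidectomized arrays and at -0.22 and -0.20 on sham 1 and sham 3. Orchidectomized 3 was the low array, and the difference was -0.46. The spot of the ubiquitin gene Ubb was saturated on every array, so no difference is given for it. Of the other genes that the naming rule gave, Uba1 differed by -0.23 without the array labelled sham 2. Over 6 arrays Uba6 and Ubqln4 differed by 0.48 and 0.40, with standard errors of 0.37 and 0.31. Ngly1 and Nfya differed by -0.39 and -0.25, with standard errors of 0.28 and 0.20. Without the array labelled sham 2 the differences of these 4 genes were 0.09, 0.08, -0.12 and -0.11.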

How the data were processed

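Hippocampal RNA samples of male rats, 3 from orchidectomized and 3 from sham-operated animals per the labels, were hybridised to 1-colour arrays (200 ng of RNA, Cy3). Per the file headers, Agilent Feature Extraction 10.5.1.1 gave a background-subtracted processed intensity for each of 44254 spots, with saturation, outlier and above-background flags, and the headers name an older genome build than the gene table used here. The authors' deposited table holds log2 values equal to the log2 processed signal plus 1 constant per array (-0.3216 to 0.7188). Medians of its columns were 8.02, 7.94 and 7.91 (orchidectomized 1 to 3), and 7.77, 7.62 and 8.05 (sham 1 to 3). The scale of this table is thus log2, a direction does not apply to 1 colour, and how the table was centred is unknown.

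Control spots (1377) and outlier spots were left out, repeated spots were averaged on the log2 scale, and each array's 75th percentile was subtracted. RefSeq accessions named 18004 of 30367 probes through the GRCr8 gene table. For each gene the brightest probe was used. Of the 44 genes, 5 had further probes and 19 have a pseudogene in that table, so cross-matching of their probes is uncertain. Between 23785 and 26173 probes per array were well above background. Probes bright on all arrays of either group were tested with limma 3.58.1 in R 4.3.3 (lmFit and eBayes, two-sided, Benjamini-Hochberg adjustment over all tested probes). The fit was tested on simulated data. The arrays lay on 4 slides (orchidectomized 1 and 2; orchidectomized 3 and sham 1; sham 2 and sham 3 on a slide each) and were scanned on 2 days, the later one for sham 2 and sham 3. Both were used as blocks. The other alternatives were normexp on median spot signals (mean signals had been planned), quantile and median scaling, the authors' values, the mean over probes, array weights, a replicate block and leaving out each array.

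The genes, the companion and marker lists and the tests were chosen with earlier results of these data known. Named genes were, per comparison and direction, up to 6 with the largest difference among those whose groups did not overlap, and the 6 farthest above and below on the array labelled sham 2. To these came a fixed set of catalytic, activator, inhibitor, deubiquitinase and ubiquitin receptor genes and the 3 companions per direction with the smallest p, or farthest out on that array. Other genes are named within their role group, and 3 companions that the rule gave are not reported here.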

Additional observations from a re-analysis of the deposited data

How the results depend on the processing

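Under every alternative run, 0 of the 44 genes passed the adjusted threshold in either comparison. Over 6 arrays limma called 1 probe with array weights and 1 with quantile scaling among all probes, where 0 were called otherwise. Without the array labelled sham 2 it called 18 with the authors' deposited values, 1 with median scaling, 2 with quantile scaling and 10 with the scan day as a block. Leaving out a further array gave 0 to 251 probes, 22 without sham 1 and 251 without sham 3, where a lone sham array is assumed to vary like the other group. The median difference of the 44 genes without the array labelled sham 2 was 0.06 with the authors' values, 0.02 with the slide and -0.04 with the scan day as a block, both against sham 1 alone, and -0.04 to 0.05 with a further array left out. Over 6 arrays, leaving out 1 array gave -0.31 to 0.00. On the array labelled sham 2 the median was 0.48 with quantile scaling, 0.86 with median scaling and 0.52 with the authors' values. Quantile and median scaling moved all probes there to 0.144 and 0.275, which leaves 0.34 and 0.58 relative to them, and median scaling moved all probes to -0.101 in the comparison over 6 arrays. The cause of these changes was not tested. With the replicate number as a block 0 probes were called in either comparison, and the median of the genes was -0.19 with all arrays and 0.03 without that of sham 2. Same-numbered arrays deviated from their group means with correlations of 0.045, -0.031 and -0.032 over 22703 probes. The array labelled sham 2 enters the sham mean and thus every sham deviation. These correlations therefore cannot show whether the numbers pair the samples. Of 651 values of named genes under alternatives, 609 moved by less than the spread between replicates, 42 by more, and 0 passed the adjusted threshold. Over 6 arrays that spread includes the array labelled sham 2, so the count cannot show how far the values depend on it. Psmb1, for example, went from -0.48 to 0.13 without that array and is counted among the 609. Single arrays and saturation of Psmc5 limit the precision.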

Other observations

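On the array labelled sham 2, which is 1 array with no test, companion genes of the proteasome went both ways. The 36 companions had a median of 0.26 above the other 5 arrays, with 23 above and 13 below, where 50.3% of all tested probes were above, and ranged from -3.17 to 2.24. Of the 36, 21 were above all other 5 arrays, against 40.2% of the probes, and 8 below all, against 40.3%. Nfe2l2, which encodes the stress-responsive transcription factor NRF2, was at 2.13 there, at -0.16, 0.05 and -0.22 on the orchidectomized arrays and at -0.08 and -0.11 on sham 1 and sham 3. Nfe2l1, whose product NRF1 drives proteasome genes when the proteasome is inhibited, was at -0.23 there, at -1.22, -1.28 and -0.68 on the orchidectomized arrays and at -1.16 and -1.21 on sham 1 and sham 3. Both regulators were among the 21 above all other arrays. The 5 genes of the VCP segregase, which extracts tagged proteins from complexes and membranes, lay a median of 0.58 above, 5 of 5, with Vcp 1.23 above. Genes of ubiquitin-conjugating enzymes went both ways, with Ube2d3 at 1.36 above and Ube2d1 and Ube2k at -3.17 and -1.85. The shuttle factor gene Ubqln2 lay at -1.28.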
